A study of Mus musculus with 9 samples.

Results

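Scavenger receptors are cell-surface and lysosomal glycoproteins through which macrophages bind modified lipoproteins, microbes, apoptotic cells and other polyanionic ligands. The 10 genes described here, Msr1, Marco, Cd36, Scarb1, Scarb2, Cd68, Olr1, Stab1, Cd163 and Mrc1, were taken by gene symbol from the 43629 genes listed in the deposited RNA-seq values. Class A receptors (Msr1, Marco) are trimers with a collagenous stalk, and class B receptors (Cd36, Scarb1, Scarb2) are held in the membrane at both ends. The others are a lectin-like receptor (Olr1), a lysosomal glycoprotein (Cd68), a large clearance receptor (Stab1), the haemoglobin-haptoglobin receptor (Cd163) and the mannose receptor (Mrc1). In macrophages the family is known for cholesterol loading into foam cells and for non-opsonic uptake of particles.

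The cells were RAW264.7, a line of mouse macrophages from an Abelson virus-induced tumour, studied in 3 groups of 3 libraries. The LPS+NaBu group received sodium butyrate (NaBu), the salt of a fatty acid made by gut bacteria and an inhibitor of histone deacetylases, described as a pretreatment, and then bacterial lipopolysaccharide (LPS). The LPS group received LPS without NaBu and the Control group neither agent, and the labels give no dose or duration. All 9 libraries come from this 1 line, none was given NaBu alone, and although the replicates are called biological, separate cultures are not stated. P-values therefore reflect how far these libraries spread, and part of that spread may be technical.

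Values are normalised counts, the deposited read counts per gene divided by 1 size factor per library, and depth was 37.6 to 64.4 M reads per library. Genes whose normalised count reached 10 in 3 or more libraries were tested, which gave 14808 genes, among them 8 of the 10 receptors. A gene that reached 10 in only 1 group was tested through that group, so its call as higher there was largely set in advance. A gene was called higher or lower at an adjusted p under 0.05 (limma, with Benjamini-Hochberg adjustment over all genes tested). Changes are log2 differences of (normalised count + 1) ± standard error, and levels are means ± SD over 3 libraries. Of 10 macrophage markers 9 were analysed and all 9 were expressed in every group. Their summed normalised count was 180852 to 195495 in LPS+NaBu, 578801 to 606507 in LPS and 401493 to 420489 in Control libraries. In LPS+NaBu against LPS, 7 of the 9 were lower (Csf1r, Itgam, Ptprc, Lyz2, Cd14, Fcgr1 and Mpeg1) and 1 was higher, where 37.8% of all genes tested were lower and 40.2% higher. In bulk RNA, fewer cells expressing a gene and less of its RNA per cell cannot be told apart.

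Marco and Cd163 had no reads in any of the 9 libraries. A count of 0 allows up to 3 reads, which corresponds to 2.06 to 4.24 normalised counts depending on the library. Neither gene was tested, and no difference between groups was detectable at this depth. The limit covers counting error only. Marco (chr1:120402267-120432753, minus strand, GRCm39) encodes a class A receptor for unopsonised bacteria and particles. Cd163 (chr6:124281606-124307560, plus strand) is a marker of resident and alternatively activated macrophages.

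Against LPS, LPS+NaBu had 5 of the 8 tested receptors lower (Msr1, Cd36, Scarb2, Cd68 and Stab1) and 2 higher (Scarb1 and Olr1), while Mrc1 did not pass the test. Over all genes tested in this comparison 78.1% were called, 40.2% higher and 37.8% lower, and the receptors' share of calls, 7 of 8, is close to that of all genes. The median change of the 8 receptors was -0.63, against 0.02 over all genes. With LPS against Control, 6 of the 8 were higher (Msr1, Cd36, Scarb2, Olr1, Stab1 and Mrc1), Scarb1 was lower and Cd68 did not pass, where over all genes 56.1% were called, 25.2% higher and 30.8% lower. The median of the 8 was 0.93, or 0.68 with Olr1 at its bound of 3 reads per Control library, against -0.05 over all genes. With LPS+NaBu against Control, 4 were higher (Scarb2, Olr1, Stab1 and Mrc1) and 4 lower (Msr1, Cd36, Scarb1 and Cd68), though the call of Scarb2 was lost in 10 of 20 alternative fits and that of Stab1 in 3. Over all genes 76.1% were called, 40.9% higher and 35.1% lower. The median of the 8 was -0.10, also with Olr1 at its bound, against 0.09 over all genes. Olr1 reached the minimum for testing only in LPS+NaBu libraries, so its calls as higher against LPS and Control were largely set in advance. Mrc1 met the minimum through the LPS+NaBu and LPS libraries, so its calls as higher than in Control were partly set in advance. The comparisons share libraries, so their counts are not independent.

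Scaling all libraries to the same summed count moved the median of all genes by -0.23 with LPS against Control and by 0.28 with LPS+NaBu against LPS. The share of calls that were higher was then 24.3% in place of 45.01% with LPS against Control, and 64.2% in place of 51.5% with LPS+NaBu against LPS. Under this scaling, quantile normalization and edgeR's factors, every direction of a called receptor held, and Cd68 with LPS against Control and Mrc1 with LPS+NaBu against LPS, which were not called, turned under at least 1 of them.

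**Figure D1:**
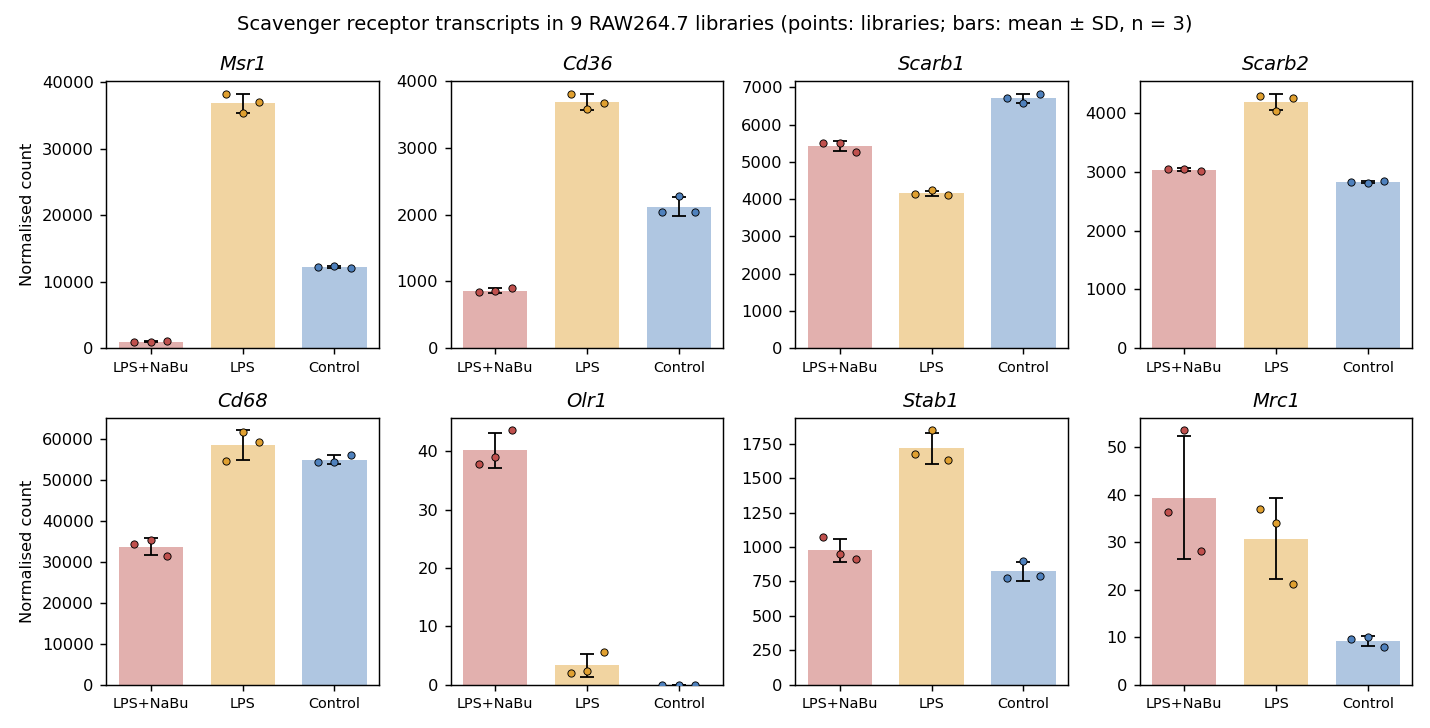
Normalised counts of the 8 scavenger receptor genes with reads, each panel with its own linear axis from 0, in LPS+NaBu, LPS and Control libraries; points are single libraries, bars are means and error bars are SD (n = 3). Msr1 lies at 933.1 to 1020.4 in LPS+NaBu and at 35388.4 to 38205.9 in LPS libraries, and Olr1 is at 0 in the 3 Control libraries.

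Promoter sequences from RefSeq (GRCm38.p6, 250 bases before to 50 bases after the annotated start) were found for 8 of the 10 genes, Marco, Cd36, Scarb2, Cd68, Olr1, Stab1, Cd163 and Mrc1. The 4 printed here belong to a receptor that was lower in both comparisons of LPS+NaBu (Cd36), the receptor of highest level (Cd68), the one absent from Control libraries (Olr1) and the 1 member with an NF-κB motif (Scarb2). They run 5′ to 3′ on the minus strand, with capitals marking matches on either strand to the PU.1 core GAGGAA, the AP-1 motif TGANTCA and the NF-κB motif.
Cd36, chr5:17835847-17836146: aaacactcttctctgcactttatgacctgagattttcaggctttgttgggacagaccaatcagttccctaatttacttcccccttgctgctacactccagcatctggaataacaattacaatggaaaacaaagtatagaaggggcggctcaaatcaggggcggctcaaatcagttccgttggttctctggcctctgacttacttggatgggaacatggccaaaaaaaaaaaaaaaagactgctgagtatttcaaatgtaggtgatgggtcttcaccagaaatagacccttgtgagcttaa
Cd68, chr11:69666121-69666420: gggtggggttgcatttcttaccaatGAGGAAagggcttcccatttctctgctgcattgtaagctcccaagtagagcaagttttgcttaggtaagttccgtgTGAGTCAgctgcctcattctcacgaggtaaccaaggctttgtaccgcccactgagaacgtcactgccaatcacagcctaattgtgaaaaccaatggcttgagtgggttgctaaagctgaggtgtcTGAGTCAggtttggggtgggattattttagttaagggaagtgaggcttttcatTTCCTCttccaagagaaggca
Olr1, chr6:129507116-129507415: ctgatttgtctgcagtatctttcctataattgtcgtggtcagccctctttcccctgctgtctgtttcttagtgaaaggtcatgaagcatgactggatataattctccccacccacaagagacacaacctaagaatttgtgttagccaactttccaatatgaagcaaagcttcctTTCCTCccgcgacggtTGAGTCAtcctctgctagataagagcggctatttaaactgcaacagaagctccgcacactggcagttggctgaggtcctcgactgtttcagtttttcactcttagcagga
Scarb2, chr5:92505608-92505907: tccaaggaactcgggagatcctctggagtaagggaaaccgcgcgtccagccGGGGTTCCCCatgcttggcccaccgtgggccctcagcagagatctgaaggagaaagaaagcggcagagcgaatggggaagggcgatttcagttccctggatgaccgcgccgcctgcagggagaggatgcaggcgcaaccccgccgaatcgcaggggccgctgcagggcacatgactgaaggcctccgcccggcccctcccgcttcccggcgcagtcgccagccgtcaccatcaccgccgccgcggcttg

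The PU.1 core was present in 5 of the 8 promoters (Marco, Cd68, Olr1, Stab1 and Mrc1) and in 28.3% of all 32851 promoters of this length. PU.1, encoded by Spi1, is the lineage factor of macrophages. The AP-1 motif was present in 2 of the 8, Cd68 and Olr1, against 7.81% of all promoters. In Olr1 it began 60 bases before the start, and in Cd68 its 2 copies lay 149 and 24 bases before the start. The NF-κB motif was present in Scarb2 alone, 199 bases before the start, and in 8.46% of all promoters. Matches to the C/EBP motif TTNNGNAA, not marked by capitals, were found in 5 of the 8 (Marco, Cd36, Cd68, Cd163 and Mrc1) and in 40.7% of all promoters. The E-box CACGTG (7.15% of all promoters), the TATA box TATAAA (13.6%) and the ISRE motif (3.44%) were found in none of the 8. Each was searched on both strands, a base could count toward more than 1 match, and a match describes letters in this window, not a bound site.

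Msr1 (chr8:40034726-40095714, minus strand, GRCm39), the macrophage scavenger receptor that takes up acetylated and oxidised low-density lipoprotein, had the largest fall of the tested members. Its normalised count was 933.1, 942.5 and 1020.4 in LPS+NaBu libraries, 38205.9, 35388.4 and 37019.0 in LPS libraries, and 12199.6, 12421.3 and 12005.0 in Control libraries. The 3 groups did not overlap, and every LPS+NaBu library lay far below every library of both other groups.

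The Msr1 level of 965 ± 47.9 in LPS+NaBu cells was 38.2-fold lower than the 36871 ± 1415 in LPS cells, a log2 change of -5.25 ± 0.05 (limma adjusted p = 2.5e-16). Among the 14808 genes tested this was the 30th largest fall. With LPS+NaBu against Control, whose level was 12209 ± 208, Msr1 was 12.6-fold lower, -3.66 ± 0.05 (limma adjusted p = 4.71e-15). LPS without NaBu had the opposite direction, 3.02-fold higher than Control, 1.59 ± 0.05 (limma adjusted p = 8.4e-12). Its level in NaBu-pretreated cells was thus below that of cells given neither agent.

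Cd36 (chr5:17986432-18094067, minus strand), a class B receptor that binds oxidised lipoproteins, long-chain fatty acids and thrombospondin, changed in the same directions as Msr1 with smaller steps. Libraries of LPS+NaBu held 836.1, 855.5 and 898.0 normalised counts, those of LPS 3813.7, 3578.7 and 3670.6, and those of Control 2035.4, 2286.2 and 2044.9. The LPS libraries were highest and the LPS+NaBu libraries lowest, with no overlap between groups. The level of 863 ± 31.6 in LPS+NaBu cells was 4.27-fold lower than the 3688 ± 118 in LPS cells, -2.09 ± 0.06 (limma adjusted p = 2.59e-12), the 659th largest fall of all genes tested. Against Control (2122 ± 142) the change with LPS+NaBu was -1.30 ± 0.06 (limma adjusted p = 2.89e-10), and that of LPS was 0.80 ± 0.06 (limma adjusted p = 9.67e-08). Across the 9 libraries the log2 values of Msr1 and Cd36 had a Pearson r of 0.99, a description over libraries that share the 3 group means.

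Scarb1 (chr5:125353547-125418176, minus strand), which encodes the high-density lipoprotein receptor SR-BI that moves cholesteryl esters across the plasma membrane, ran the other way. Normalised counts were 5501.0, 5500.9 and 5264.5 in LPS+NaBu libraries, 4137.5, 4236.0 and 4099.9 in LPS libraries, and 6708.8, 6584.7 and 6829.8 in Control libraries. Here the LPS libraries were lowest and the LPS+NaBu libraries lay between them and the Control libraries, without overlap. Scarb1 was 1.30-fold higher with LPS+NaBu (5422 ± 137) than with LPS (4158 ± 70.3), 0.38 ± 0.04 (limma adjusted p = 1.32e-06). It was lower than in Control cells (6708 ± 123) both with LPS+NaBu, -0.31 ± 0.04 (limma adjusted p = 1.23e-05), and with LPS, -0.69 ± 0.04 (limma adjusted p = 9.02e-09). The libraries were made with a directional kit, but whether strand was used in counting is not stated in the sources used here, and 2 long non-coding RNA genes overlap Scarb1 exons on the opposite strand.

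Scarb2 (chr5:92589169-92654692, minus strand), the lysosomal class B member LIMP-2 that carries β-glucocerebrosidase to lysosomes, was highest with LPS. Its normalised count was 3046.2, 3056.0 and 3013.2 in LPS+NaBu libraries, 4287.9, 4028.3 and 4252.4 in LPS libraries, and 2828.1, 2803.3 and 2849.6 in Control libraries. The LPS libraries stood above both other groups, whose values did not overlap but lay close together. Scarb2 was lower with LPS+NaBu (3038 ± 22.4) than with LPS (4190 ± 141), -0.46 ± 0.04 (limma adjusted p = 3.5e-07), and higher with LPS than in Control cells (2827 ± 23.2), 0.57 ± 0.04 (limma adjusted p = 1.17e-07). The difference between LPS+NaBu and Control, 0.10 ± 0.04, passed the test (limma adjusted p = 0.0411) but was lost in 10 of 20 alternative fits, among them edgeR on the recovered reads, at 0.04 (adjusted p = 0.487, range over the alternatives 0.00601 to 0.487). It was also lost without any 1 of the LPS+NaBu or Control libraries or without LPS replicate 3 (limma adjusted p 0.0513 to 0.1002). As with Scarb1, a long non-coding RNA gene overlaps Scarb2 exons on the opposite strand.

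**Figure D2:**
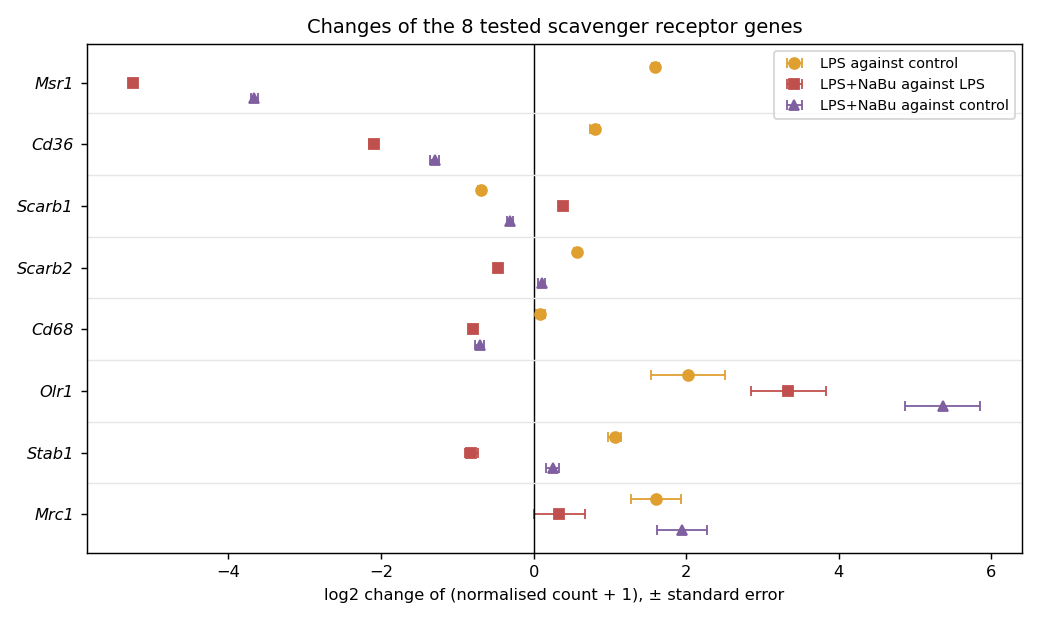
Log2 changes of (normalised count + 1) for the 8 tested scavenger receptor genes in the 3 comparisons (circles: LPS against Control; squares: LPS+NaBu against LPS; triangles: LPS+NaBu against Control), with bars of 1 standard error from limma. Msr1 lies at -5.25 and Cd36 at -2.09 with LPS+NaBu against LPS, and the squares of Scarb1 and Olr1 lie right of 0.

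Cd68 (chr11:69555037-69557067, minus strand), a lysosomal and endosomal member of the LAMP family used as a pan-macrophage marker, was lower in the cells given NaBu. Cd68 had normalised counts of 34284.8, 35415.5 and 31439.1 in LPS+NaBu libraries, 54586.5, 61582.8 and 59257.0 in LPS libraries, and 54383.1, 54312.7 and 56083.9 in Control libraries. The LPS+NaBu libraries lay below all 6 others, while the LPS and Control libraries overlapped. Cd68 was 1.73-fold lower with LPS+NaBu (33713 ± 2049) than with LPS (58475 ± 3563), -0.79 ± 0.06 (limma adjusted p = 2.55e-08), and lower than in Control cells (54927 ± 1003), -0.71 ± 0.06 (limma adjusted p = 9.36e-08). Between LPS and Control the difference of 0.09 ± 0.06 did not pass the test (limma adjusted p = 0.208). Its sign turned when libraries were scaled to the same sum, at -0.14 (limma adjusted p = 0.0263), and under quantile normalization, at -0.29 (limma adjusted p = 4.81e-05), so no direction is given (adjusted p 4.81e-05 to 0.497 over the alternatives). The change of LPS+NaBu against LPS was -0.24 under quantile normalization.

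Olr1 (chr6:129462207-129484128, minus strand) encodes LOX-1, the lectin-like receptor for oxidised low-density lipoprotein first described in endothelial cells, and was low throughout. The reads behind it were 55, 35 and 48 in LPS+NaBu libraries, 2, 2 and 4 in LPS libraries, and 0, 0 and 0 in Control libraries. As normalised counts these were 37.8, 39.04 and 43.5 with LPS+NaBu, 2.01, 2.35 and 5.65 with LPS, and 0 in Control. Every LPS+NaBu library lay above every other library.

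The normalised ratio of the summed Olr1 reads with LPS+NaBu over LPS was 12.8 (exact 95% binomial interval 6.31 to 30.2, counting error only), and the log2 change was 3.34 ± 0.49 (limma adjusted p = 3.22e-05). Against a floor of 3 reads per Control library, Olr1 was at least 14.3-fold higher with LPS+NaBu (limma adjusted p = 3.35e-07). Only LPS+NaBu libraries reached the minimum for testing, so the calls of Olr1 as higher against LPS and Control were largely set in advance. LPS against Control passed the test as well (limma adjusted p = 0.00327), with 8 reads in the 3 LPS libraries and none in the Control libraries, too few for a fold change. Of the markers of endothelial cells, a cell type that expresses Olr1 and Stab1, 4 of 7 reached the minimum for testing and 2 of these passed as higher in LPS+NaBu against LPS (40.2% of all genes did), and Emcn had no reads. Their summed normalised count was 93.7 to 124 in LPS+NaBu, 37.6 to 84.7 in LPS and 18.3 to 25.003 in Control libraries. With sums this low, some of these genes may have been tested only through LPS+NaBu, so the 2 calls cannot be set against the share of all genes. The part of such markers in the Olr1 change was not tested.

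Stab1 (chr14:30860970-30890598, minus strand), the clearance receptor stabilin-1 of alternatively activated macrophages and sinusoidal endothelium, was highest with LPS. The Stab1 normalised count was 1071.3, 950.3 and 911.6 in LPS+NaBu libraries, 1673.2, 1846.3 and 1635.4 in LPS libraries, and 775.2, 902.1 and 792.6 in Control libraries. The LPS libraries stood apart, and the lowest LPS+NaBu library exceeded the highest Control library only narrowly. Stab1 was lower with LPS+NaBu (978 ± 83.3) than with LPS (1718 ± 112), -0.81 ± 0.08 (limma adjusted p = 8.84e-07), and higher with LPS than in Control cells (823 ± 68.8), 1.06 ± 0.08 (limma adjusted p = 1.57e-07).

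The Stab1 difference between LPS+NaBu and Control, 0.25 ± 0.08 (limma adjusted p = 0.0151), lost its call without LPS+NaBu replicate 1, at 0.18 (limma adjusted p = 0.0784). The call was also lost without Control replicate 1, at 0.21 (limma adjusted p = 0.0663), and without Control replicate 3, at 0.22 (limma adjusted p = 0.0536), with a range over the alternatives of 0.00481 to 0.0784. Stab1 overlaps Nt5dc2 and 2 long non-coding RNA genes on the opposite strand, and reads of overlapping genes cannot be told apart if strand was not used in counting. Nt5dc2 had 4333 ± 360 normalised counts with LPS+NaBu, 1475 ± 100 with LPS and 2027 ± 119 in Control cells. This order is opposite to that of Stab1 between LPS+NaBu and LPS, and the same as that of Stab1 between LPS+NaBu and Control. The part of such reads in the Stab1 values was not tested.

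Mrc1 (chr2:14234151-14336926, plus strand), the mannose receptor CD206 used as a marker of alternatively activated macrophages, was near the lower end of detection. Mrc1 had normalised counts of 36.4, 53.5 and 28.1 in LPS+NaBu libraries (53, 48 and 31 reads), 37.1, 34.0 and 21.2 in LPS libraries (37, 29 and 15 reads), and 9.54, 10.001 and 8.05 in Control libraries (12, 10 and 8 reads). LPS+NaBu and LPS libraries overlapped, and both groups lay above the Control libraries. Mrc1 was higher than in Control cells (9.20 ± 1.02) both with LPS+NaBu (39.4 ± 13.0), 1.94 ± 0.33 (limma adjusted p = 0.000136), and with LPS (30.8 ± 8.44), 1.61 ± 0.33 (limma adjusted p = 0.00107). Mrc1 met the minimum for testing through the LPS+NaBu and LPS libraries, so these calls were partly set in advance. The ratio of summed reads to Control was 4.14 with LPS+NaBu (exact 95% binomial interval 2.77 to 6.38) and 3.43 with LPS (2.23 to 5.41). Under quantile normalization the change with LPS+NaBu against Control was smaller, 1.14 (limma adjusted p = 0.00609, range over the alternatives 5.28e-06 to 0.00609). With LPS+NaBu against LPS the change was 0.34 ± 0.33 (limma adjusted p = 0.369), and the ratio of summed reads was 1.21 (0.908 to 1.61). That interval holds a small fall, no change and a rise of 1.61-fold. All intervals given for Mrc1 cover counting error only, not the spread between libraries.

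Between members, levels can be compared only per length, and they are given as normalised counts per kilobase of all annotated exons (GENCODE M39). Cd68 had the highest level in every group, 24626 ± 1497 per kilobase with LPS+NaBu, 42714 ± 2603 with LPS and 40122 ± 733 in Control cells. The order below it differed between groups. With LPS+NaBu it ran Scarb1 (524 ± 13.2 per kilobase), Scarb2 (440 ± 3.25), Msr1 (152 ± 7.56), Stab1 (95.04 ± 8.10), Cd36 (68.4 ± 2.51), Olr1 (9.995 ± 0.750) and Mrc1 (5.03 ± 1.66). With LPS it ran Msr1 (5812 ± 223), Scarb2 (607 ± 20.4), Scarb1 (402 ± 6.80), Cd36 (292 ± 9.38), Stab1 (167 ± 10.9), Mrc1 (3.93 ± 1.08) and Olr1 (0.830 ± 0.501). In Control cells it ran Msr1 (1924 ± 32.8), Scarb1 (648 ± 11.8), Scarb2 (409 ± 3.36), Cd36 (168 ± 11.3), Stab1 (80.0 ± 6.69) and Mrc1 (1.17 ± 0.131), with Olr1 at 0. No 2 neighbours in these orders overlapped between libraries of a group, apart from the members at 0.

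The level of the 10 genes summed per kilobase was 25921 ± 1508 with LPS+NaBu, 49998 ± 2373 with LPS and 43353 ± 709 in Control cells. Msr1 made up 0.589% of this sum with LPS+NaBu, 11.7% with LPS and 4.44% in Control cells, and Cd68 made up 94.996% with LPS+NaBu, 85.4% with LPS and 92.5% in Control cells. The order depends on the length used, and Msr1 has 6344 bases of annotated exons but a canonical transcript of 1424 bases. Dividing by canonical transcript length, an alternative chosen after the data were seen, put Msr1 above Scarb2 and Cd36 above Stab1 with LPS+NaBu, and Scarb1 and Cd36 above Scarb2 with LPS. It made Cd36 and Scarb2 overlap in Control cells, and left Cd68 highest. The Msr1 share was then 2.13% with LPS+NaBu, 33.0% with LPS and 14.7% in Control cells.

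**Figure D3:**
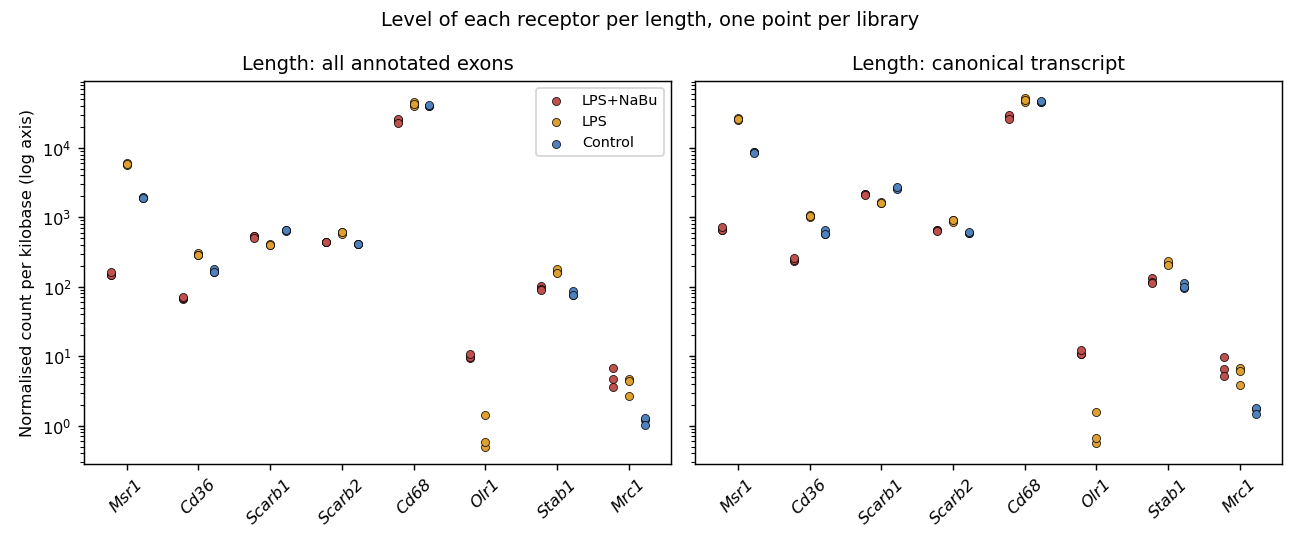
Normalised count per kilobase on a log axis for the 8 scavenger receptor genes with reads, 1 point per library, in LPS+NaBu, LPS and Control cells, by the length of all annotated exons (left) and by canonical transcript length (right). Libraries at 0 (Olr1 in Control) cannot be drawn on this axis; Cd68 is highest in each group, and Msr1 spans the widest range of the members with reads in all groups.

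The other genes of scavenger receptor pathways were counted in 7 lists, each given beside the share of all genes called, which was 78.1% with LPS+NaBu against LPS, 56.1% with LPS against Control and 76.1% with LPS+NaBu against Control. Of 13 tested other scavenger receptors, 3 were higher and 7 lower with LPS+NaBu than with LPS (median -0.69), and 7 were higher and 3 lower with LPS than in Control cells (median 0.54). Against Control, LPS+NaBu had 6 higher and 6 lower (median 0.70). The share called was 76.9% with LPS+NaBu against LPS, near that of all genes, 76.9% with LPS against Control and 92.3% with LPS+NaBu against Control. Cd14, the LPS co-receptor that also binds apoptotic cells, had 9086 ± 198 normalised counts with LPS+NaBu, 165693 ± 7569 with LPS and 55565 ± 1999 in Control cells, and its log2 change with LPS+NaBu against LPS was -4.19 ± 0.05. Colec12, a collectin with a scavenger receptor stalk, had 5092 ± 236 with LPS+NaBu, 21383 ± 929 with LPS and 24621 ± 522 in Control cells, -2.27 ± 0.05 with LPS+NaBu against Control. Cd14 thus took the order of Msr1 and Cd36 over the 3 groups, and Colec12 did not.

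Among the same list, Cxcl16, a membrane-bound chemokine that is also a receptor for oxidised lipoprotein, had 175 ± 39.5 normalised counts with LPS+NaBu, 813 ± 43.4 with LPS and 87.6 ± 11.5 in Control cells. Scarf2, an EGF-repeat family member, had 44.8 ± 10.3 with LPS+NaBu and no reads in the LPS and Control libraries. Lrp2, the endocytic receptor megalin, had 63.9 ± 14.6 with LPS+NaBu, 3.33 ± 2.01 with LPS and 9.45 ± 4.33 in Control cells. Scarf2 and Lrp2, like Olr1, were low genes that rose with LPS+NaBu. As with Olr1, Scarf2 and Lrp2 met the minimum for testing only through LPS+NaBu, so their calls as higher there were largely set in advance. Scara3 had 2.57 ± 0.29 with LPS+NaBu, 24.6 ± 6.75 with LPS and 0.667 ± 1.15 in Control cells. It was tested only through LPS, so its calls as higher with LPS and as lower with LPS+NaBu than with LPS were also largely set in advance.

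Of 19 tested regulators known to act on scavenger receptor genes, 9 were higher and 7 lower with LPS+NaBu than with LPS (median 0.04). With LPS against Control 5 were higher and 7 lower (median -0.11), and with LPS+NaBu against Control 7 were higher and 9 lower (median -0.07). The shares called, 84.2%, 63.2% and 84.2% for LPS+NaBu against LPS, LPS against Control and LPS+NaBu against Control, lay within 10 percentage points of those of all genes. Spi1, which encodes PU.1, had 2382 ± 175 normalised counts with LPS+NaBu, 16652 ± 1295 with LPS and 13413 ± 404 in Control cells, a log2 change of -2.80 ± 0.06 with LPS+NaBu against LPS. Nr1h3, the oxysterol receptor LXRα, had 105 ± 12.5 with LPS+NaBu, 393 ± 14.0 with LPS and 396 ± 56.8 in Control cells, -1.90 ± 0.13 with LPS+NaBu against LPS. Both were lower with LPS+NaBu than in either other group, as Msr1, Cd36 and Cd68 were. Scarb2, Olr1, Stab1 and Mrc1 were instead called higher than in Control cells, though the calls of Scarb2 and Stab1 were lost in some alternative fits. The part of these regulators in the receptor changes was not tested.

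Irf4, a factor of alternative activation, rose to 2663 ± 88.6 normalised counts with LPS+NaBu, against 179 ± 17.8 with LPS and 207 ± 21.2 in Control cells. Ppara, a fatty acid receptor, rose to 46.8 ± 6.89 with LPS+NaBu, against 2.51 ± 2.36 with LPS and 2.66 ± 1.14 in Control cells. Both were higher with LPS+NaBu than in either other group, with Ppara low throughout and at the minimum for testing only through LPS+NaBu. Pparg, the nuclear receptor that drives Cd36 in lipid-loaded macrophages, was near the floor, at 15.4 ± 4.41 with LPS+NaBu, 0.783 ± 1.36 with LPS and 5.93 ± 2.68 in Control cells. Cebpb had 4476 ± 119 with LPS+NaBu, 16061 ± 968 with LPS and 4358 ± 129 in Control cells. Pparg met the minimum for testing only through LPS+NaBu, so at these counts its order over the groups cannot be set against that of Cd36. Cebpb was highest with LPS, as Msr1, Cd36, Scarb2 and Stab1 were. Whether any of them acts on these receptors here was not tested.

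Of 16 tested genes of lipoprotein uptake, storage and efflux, 2 were higher and 9 lower with LPS+NaBu than with LPS (median -0.42). With LPS against Control 7 were higher and 5 lower (median 0.10), and with LPS+NaBu against Control 5 were higher and 9 lower (median -0.43). The share called was 68.8% with LPS+NaBu against LPS, below that of all genes, and 87.5% with LPS+NaBu against Control. Lpl, the lipoprotein lipase, had 37473 ± 4289 normalised counts with LPS+NaBu, 150707 ± 6715 with LPS and 144579 ± 24868 in Control cells. Fabp4, a fatty acid chaperone, was highest with LPS+NaBu, at 5354 ± 211, against 2175 ± 111 with LPS and 434 ± 33.1 in Control cells. The cholesterol exporter Abca1 had 2806 ± 201 with LPS+NaBu, 1944 ± 362 with LPS and 2348 ± 145 in Control cells. Lpl was thus lower with LPS+NaBu than with LPS, as Msr1 and Cd36 were, and Abca1 and Fabp4 were the 2 higher genes of the list.

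Of 11 tested genes of apoptotic cell recognition, 7 were higher and 4 lower with LPS+NaBu than with LPS (median 1.05), 2 were higher and 7 lower with LPS than in Control cells (median -0.48), and 6 were higher and 4 lower with LPS+NaBu than in Control cells (median 0.62). All 11 were called with LPS+NaBu against LPS, where 78.1% of all genes were. Mertk, a receptor kinase for apoptotic cells, had 374 ± 32.0 normalised counts with LPS+NaBu, 0.334 ± 0.579 with LPS and 1.73 ± 1.61 in Control cells. Mertk was tested only through LPS+NaBu, so its place among the 7 higher genes and the 11 called was largely set in advance. The Mertk ligand Gas6 had 2775 ± 304 with LPS+NaBu, 208 ± 7.78 with LPS and 704 ± 20.03 in Control cells. The related receptor Axl had 7295 ± 333 with LPS+NaBu, 26561 ± 328 with LPS and 14677 ± 145 in Control cells. Axl had the order of Msr1, and Mertk and Gas6 were highest with LPS+NaBu.

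**Figure D4:**
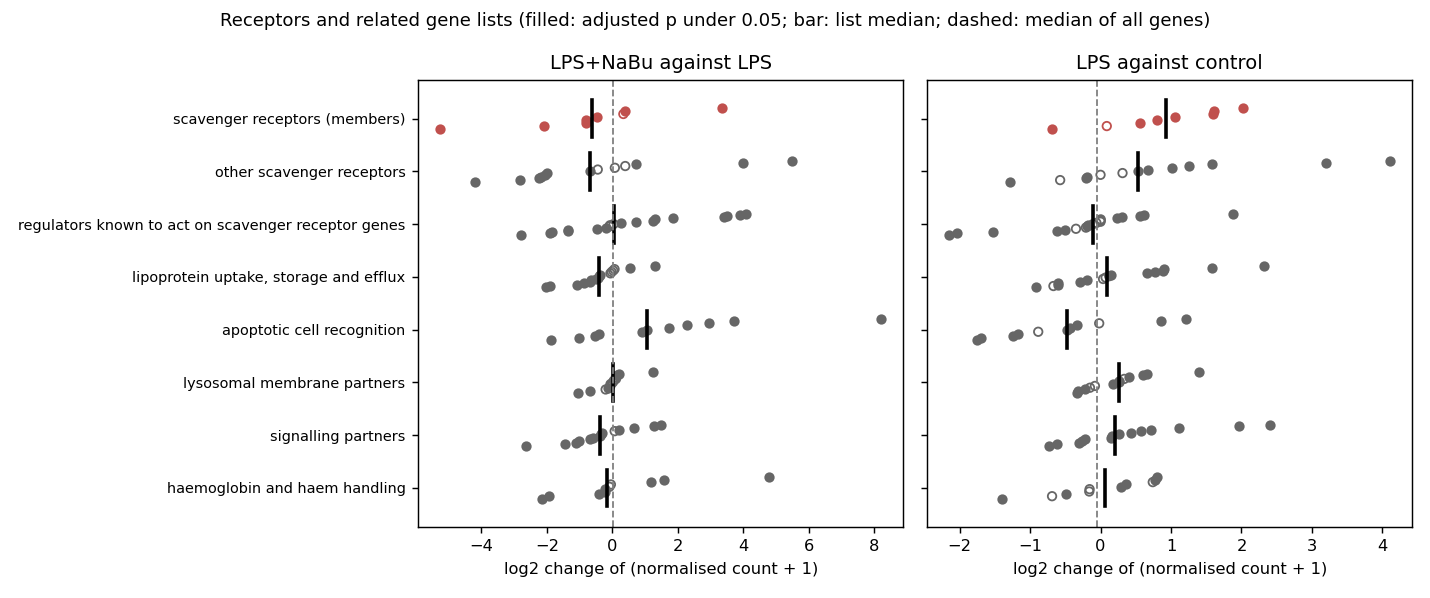
Log2 changes of (normalised count + 1) for the tested scavenger receptors (top row) and 7 related gene lists, 1 point per gene, with LPS+NaBu against LPS (left) and LPS against Control (right); filled points passed an adjusted p under 0.05, bars are list medians and the dashed line is the median of all genes tested. The receptors' median is -0.63 on the left and 0.93 on the right.

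Of 13 tested lysosomal membrane partners of Scarb2 and Cd68, 3 were higher, 3 lower and 7 not called with LPS+NaBu against LPS (median 0.01), 7 were higher and 3 lower with LPS against Control (median 0.26), and 6 were higher and 4 lower with LPS+NaBu against Control (median 0.13). Of these 46.2% were called with LPS+NaBu against LPS, against 78.1% of all genes, and 76.9% in each of the other comparisons. Cd63, a tetraspanin of late endosomes, had 11870 ± 396 normalised counts with LPS+NaBu, 24553 ± 1959 with LPS and 20482 ± 1262 in Control cells, and Ctsb, a lysosomal protease, had 160912 ± 7921 with LPS+NaBu, 258016 ± 10409 with LPS and 214225 ± 1381 in Control cells. Cd63 and Ctsb were thus lower with LPS+NaBu than in both other groups, as Cd68 was. Others of the list went the other way. Ostm1 was highest with LPS+NaBu, at 4096 ± 108, against 1751 ± 33.8 with LPS and 2181 ± 63.0 in Control cells. Ctsl had 57751 ± 2504 with LPS+NaBu, 52688 ± 1312 with LPS and 19974 ± 398 in Control cells. The list as a whole therefore did not share the direction of Cd68.

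Of 14 signalling partners, 4 were higher and 9 lower with LPS+NaBu than with LPS (median -0.37), 9 were higher and 5 lower with LPS than in Control cells (median 0.21), and 6 were higher and 7 lower with LPS+NaBu than in Control cells (median -0.05). The share called was 92.9% in both comparisons of LPS+NaBu, and all 14 were called with LPS against Control. Src, a kinase acting downstream of several receptors of the family, had 4385 ± 207 normalised counts with LPS+NaBu, 27202 ± 1040 with LPS and 5129 ± 101 in Control cells, -2.63 ± 0.05 with LPS+NaBu against LPS. Fyn, a kinase that binds CD36, was highest with LPS+NaBu, at 3899 ± 176, against 1407 ± 104 with LPS and 1689 ± 59.2 in Control cells. Tlr4, the LPS receptor with which CD36 can form complexes, had 2079 ± 219 with LPS+NaBu, 2693 ± 270 with LPS and 4138 ± 253 in Control cells. The kinases therefore differed in direction among themselves.

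Of 10 genes of haemoglobin and haem handling, the pathway in which Cd163 acts, 3 were higher and 5 lower with LPS+NaBu than with LPS (median -0.15), 4 were higher and 2 lower with LPS than in Control cells (median 0.07), and 6 were higher and 4 lower with LPS+NaBu than in Control cells (median 0.17). Of the 10, 8 were called with LPS+NaBu against LPS and 6 with LPS against Control, near the shares of all genes, and all 10 with LPS+NaBu against Control. Among them Hpx had 27.5 ± 9.20 with LPS+NaBu, 0 with LPS and 1.06 ± 1.84 in Control cells. Hpx was tested only through LPS+NaBu, so its calls as higher there were largely set in advance. Hmox1, the haem oxygenase, had 20874 ± 277 normalised counts with LPS+NaBu, 24256 ± 1274 with LPS and 13908 ± 567 in Control cells. Slc40a1, the iron exporter ferroportin, had 1960 ± 72.1 with LPS+NaBu, 653 ± 30.1 with LPS and 1716 ± 85.7 in Control cells. Genes of this pathway were thus expressed in libraries where Cd163 itself had no reads.

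Markers of most other cell types were low in all libraries, and several were highest with LPS+NaBu. Fibroblast markers summed to 268 to 296 normalised counts with LPS+NaBu, 13.0 to 18.8 with LPS and 6.36 to 12.1 in Control libraries. All 4 tested passed as higher in LPS+NaBu against LPS, where 40.2% of all genes were higher. With sums this low in the other groups, these genes were tested largely through LPS+NaBu, so the 4 calls cannot be set against that share. Adipocyte markers summed to 41.7 to 60.2 with LPS+NaBu, 0 to 2.01 with LPS and 0 to 4.0004 in Control libraries, and Lep had no reads. Their only tested gene was higher with LPS+NaBu, but it was tested only through that group, so the call was largely set in advance. Hepatocyte markers reached at most 7.26 normalised counts, with Alb, Ttr and Cyp2e1 at 0. Neutrophil markers summed to 39.2 to 41.3 with LPS+NaBu, 117 to 122 with LPS and 16.1 to 25.4 in Control libraries, with S100a9 at 0. B cell markers summed to 46.3 to 56.4 with LPS+NaBu, 74.9 to 104 with LPS and 5.57 to 20.002 in Control libraries, with Ms4a1 at 0. The range for T cell markers was 7.81 to 29.6 with LPS+NaBu, 8.47 to 11.7 with LPS and 8.001 to 15.1 in Control libraries. Markers shared with dendritic cells and osteoclasts, which macrophage lines also express, summed to 4318 to 5024 and 45859 to 47739 with LPS+NaBu, 11437 to 12110 and 120109 to 128128 with LPS, and 8478 to 9228 and 91166 to 96952 in Control libraries. The osteoclast sum does not stand for its genes, since with LPS+NaBu 3 of 5 tested were higher and 2 lower than with LPS (median 0.38), and 4 of 5 were higher than in Control cells (median 1.20). The part of any of these lists in the receptor changes was not tested.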

How the data were processed

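RNA of 9 RAW264.7 libraries was analysed, grouped by the treatment in the labels. The study's methods name Trimmomatic, HISAT2, featureCounts with uniquely mapped reads, a variance-stabilising step in DESeq2 and limma. STAR 2.7.7a, DESeq2 and the mm39 build are named in the submitters' processing notes, so the aligner is uncertain, and the labels give total RNA where the methods speak of mRNA. The deposited signal is called FPKM, but in every library 100% of the authors' values were whole multiples of 1 step (tolerance 0.001), equal to the reciprocal of DESeq2's size factor. The values are therefore gene counts divided by a size factor, not by length. In 3 libraries the step lies within 1% of 1, where this check says little.

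Log2(normalised count + 1) was fitted with limma 3.58.1 in R 4.3.3, as 1 model of all 9 libraries with 3 group means, an intensity trend and two-sided tests. The median standard error was 0.085. Alternatives were pseudocounts of 0.5 and 5, no minimum and a minimum of 50, same-sum and quantile scaling, no trend, edgeR 4.0.16 and DESeq2 1.42.0 on recovered reads, the 6 libraries compared, a replicate block, and leaving out each library. The scripts were tested on simulated data. Of the identifiers 38984 (89.35%) matched GENCODE M39 (GRCm39), and promoters are RefSeq's on GRCm38.p6. Members and lists were chosen with earlier results of these data known. All 10 members were named, and per list and comparison up to 2 called genes with the largest rise and 2 with the largest fall, from which examples are given. Protein sequences were not used here.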

Additional observations from a re-analysis of the deposited data

How the results depend on the processing

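Each receptor's change was recomputed under 20 alternatives. Direction and side of the threshold held in 156 of 158 values with LPS against Control, 157 of 158 with LPS+NaBu against LPS and 145 of 158 with LPS+NaBu against Control. With LPS against Control, Cd68 turned to -0.14 scaled to the same sum and -0.29 under quantile normalization. In LPS+NaBu against LPS, Mrc1 turned to -0.30 under quantile normalization (limma adjusted p = 0.405, range over the alternatives 0.111 to 0.819), not called in any. The other 13 values lost their call, 10 of Scarb2 and 3 of Stab1, all with LPS+NaBu against Control. Scarb2 lost it with no minimum (limma adjusted p = 0.0662), with edgeR and with the replicate block (0.10, limma adjusted p = 0.0725), as well as in the leave-one-out fits given above. The block changed no other receptor's call. Same-numbered libraries of different groups had correlations of -0.23 to 0.18 over 9 pairs, of which 1 was over 0.1, and differently numbered ones -0.36 to 0.32. The numbers thus gave no sign of pairing, but with 3 libraries per group this check cannot exclude it. Calls over all genes with LPS against Control were 2273 higher and 7074 lower scaled to the same sum, against 3739 and 4568. A minimum of 50 gives no value for Olr1 and Mrc1. By canonical transcript length, chosen after seeing the data, the Cd68 share of the summed level was 88.0% with LPS+NaBu, 62.1% with LPS and 78.5% in Control cells, and the Msr1 share 2.13% with LPS+NaBu, 33.0% with LPS and 14.7% in Control cells. Depth limits Olr1, Mrc1, Marco and Cd163.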

Other observations

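The fitted group means of Olr1 spread over 5.36 on the log2 scale and those of Msr1 over 5.25, but the value of Olr1 depends on the pseudocount, as its Control libraries have no reads, and its bound at 3 reads per library is 3.84. The 2 are therefore not ranked. The 5 genes whose log2 values over the 9 libraries were most like Olr1 were Chrdl2 (Pearson r = 0.999), Rnf34, Vhl, Txnrd1 and Stambp (r = 0.992 to 0.993). Chrdl2, a low gene, had 24.4 ± 1.01 normalised counts with LPS+NaBu, 2.86 ± 1.20 with LPS and 0 in Control cells. For Msr1, taken up after its values were seen, the most alike was Hmga2 (r = 0.9997), at 1200 ± 130 with LPS+NaBu, 37929 ± 1330 with LPS and 12912 ± 388 in Control cells, followed by Igsf6 at 122 ± 8.20 with LPS+NaBu, 3867 ± 156 with LPS and 1431 ± 56.4 in Control cells. These correlations are descriptions over 9 libraries that share 3 group means and their scaling.

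Within the family, pairs of members ranged from opposite to alike in log2 values over the same 9 libraries. Values were r = -0.95 between Scarb1 and Scarb2 and r = -0.95 between Scarb1 and Stab1, against r = 0.97 between Scarb2 and Stab1. Msr1 and Olr1 had r = -0.77, and Cd68 and Olr1 r = -0.86. Other pairs were near 0, with r = 0.03 between Scarb2 and Olr1, 0.07 between Olr1 and Stab1 and -0.15 between Scarb1 and Cd68. Correlations of Olr1 depend on the pseudocount, as its Control libraries have no reads.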
